A study of Mus musculus with 5 samples.

Results

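The genes described here are the amino acid transporter genes of the solute carrier families Slc1, Slc3, Slc6, Slc7, Slc36, Slc38 and Slc43, taken by symbol from the deposited expression files. Every symbol made of one of these family names, the letter a and a number was included, except Slc38a4. The rule found 58 genes among the 22026 gene symbols of the files. Symbols that carry a further letter after the number, such as Slc6a20a, lie outside it. RNA-seq was run on 5 libraries of mouse B6D2F1 embryos at the 4-cell stage, all made by nuclear transfer, in which a donor nucleus is moved into an oocyte freed of its own chromosomes. There was 1 library for each of 5 treatments: none (untreated), luciferase, H3.3 knockdown, H3.3 knockdown with H3.3 mRNA, and H3.3 knockdown with H3.2 mRNA. The donor cell type, the means of the knockdown and the number of embryos in a library are not stated in the labels used here. The last library is labelled inconsistently, since its title names H3.2 mRNA and its treatment entry names H3.3 mRNA, and it is called the H3.2 mRNA library here by its title. The variant H3.3, made from the genes H3f3a and H3f3b, is a histone H3 that can enter chromatin without DNA replication, and all 3 of the last libraries carry its knockdown by label.

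With 1 library per treatment no difference has a replicate check, and no p-value is given. Values are FPKM (fragments per kilobase of transcript and scaled to the mapped fragments of the library), so levels of different genes are per length. Differences between libraries still moved with transcript length, as given below, so levels of genes of unlike length compare only roughly. Differences are of log2(FPKM + 1), a scale that shrinks the differences of low genes. A gene counts as 4-fold apart at a difference of 2 on that scale, and it passes the filter at a mean of at least 1 FPKM over the 5 libraries. Between 10443 and 12300 of all genes were above 0 in a library. H3f3a and H3f3b together stood at 5266 FPKM in the untreated library, 5734 FPKM in the luciferase library, 664 FPKM in the knockdown, 467 FPKM with H3.3 mRNA and 420.1 FPKM with H3.2 mRNA. All 3 libraries labelled as knockdown were low in the target, and the H3.3 mRNA library was not higher in it than the knockdown. Of 6 early embryo markers all were above 0 in each library, apart from Tdgf1, which was listed at 0 with H3.3 mRNA. At most 4 of 10 fibroblast markers were above 0 in a library, with a summed level of 0 to 11.0 FPKM, and Col1a1, Dcn and Thy1 were listed at 0 in every library. Cumulus and granulosa cell markers summed to 192, 12.1, 19.7, 36.5 and 23.8 FPKM in the untreated, luciferase, knockdown, H3.3 mRNA and H3.2 mRNA libraries. At most 4 of 11 were above 0 in a library, and Fshr and Amh were listed at 0 throughout. The untreated sum came from Inhbb, Cyp19a1 and Tnfaip6. The 7 blood cell markers summed to 236, 33.2, 150.2, 49.2 and 3.87 FPKM in the untreated, luciferase, knockdown, H3.3 mRNA and H3.2 mRNA libraries, with at most 3 above 0 and Ptprc, Hbb-b1 and Cd34 listed at 0 in each. The blood cell marker sum came from Hba-a1, Sfpi1 and Cd52 in the untreated library and from Hba-a1 and Cd52 in the knockdown. The 10 oocyte markers summed to 5041 FPKM in the untreated library and to 291, 1586, 1193 and 894 FPKM in the luciferase, knockdown, H3.3 mRNA and H3.2 mRNA libraries. The source labels also divide the libraries into NT (untreated, knockdown, H3.3 mRNA) and SCNT (luciferase, H3.2 mRNA), and no source used here says whether that marks separate experiments.

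Amino acid transporters are membrane proteins that move amino acids, often by coupling them to sodium, to protons or to exchange for another amino acid. The heteromeric transporters pair a glycoprotein heavy chain (Slc3 family), which carries the complex to the cell surface, with a light chain (Slc7 family), which forms the pore. In the cleaving mouse embryo, glycine, taurine and other amino acids taken up in this way serve as osmolytes that hold cell volume, and glutamine, leucine and arginine feed protein synthesis and signal to the growth kinase complex mTORC1. Cells short of amino acids raise some of these genes through the transcription factor ATF4, which binds amino acid response elements in their regulatory DNA.

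Promoters are shown for the members that hold the core of such an element, because this element is a known link between amino acid supply and some genes of this group. The letters searched for were TGATGNAA, on both strands, in the 250 bases before each gene start of the RefSeq promoter table (GRCm38.p6, a later build than the mm9 of the expression files). The table held 59 promoters for 40 of the 58 genes. The core was present in 3 of the 59 (5.08%), against 3.45% of all 32851 promoters, and the 3 belonged to Slc7a11 and Slc7a7. A match is a description of the letters and not a binding site. Capitals mark the core or its reverse complement, each sequence is written 5′ to 3′ on the gene's own strand, which is the minus strand for each, and the last base lies next to the gene start.
Slc7a11, chr3:50443614-50443863: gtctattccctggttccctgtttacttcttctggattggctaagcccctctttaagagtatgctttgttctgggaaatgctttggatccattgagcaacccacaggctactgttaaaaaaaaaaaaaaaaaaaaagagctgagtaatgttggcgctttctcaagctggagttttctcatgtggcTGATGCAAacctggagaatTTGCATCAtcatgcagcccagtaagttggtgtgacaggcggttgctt
Slc7a7, chr14:54417703-54417952: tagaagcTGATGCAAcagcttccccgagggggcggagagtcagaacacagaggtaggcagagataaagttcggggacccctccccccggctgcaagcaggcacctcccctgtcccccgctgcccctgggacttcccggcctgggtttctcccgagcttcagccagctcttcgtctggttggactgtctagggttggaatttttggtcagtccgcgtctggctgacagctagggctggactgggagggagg
Slc7a7, other start, chr14:54417945-54418194: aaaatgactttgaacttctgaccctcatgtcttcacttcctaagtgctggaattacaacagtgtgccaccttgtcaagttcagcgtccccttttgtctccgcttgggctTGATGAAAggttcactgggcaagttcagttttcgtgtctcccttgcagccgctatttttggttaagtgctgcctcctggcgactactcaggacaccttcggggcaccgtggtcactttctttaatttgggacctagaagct
Slc7a11 encodes the light chain of the cystine and glutamate exchanger, and its promoter held the core on both strands, beginning 66 and 47 bases before the start. Slc7a7 encodes a light chain that exchanges cationic for neutral amino acids, and its annotated starts held the core at 243 and 141 bases. The mRNA levels of both are given with the light chains.

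Of the 58 genes, 38 passed the filter and 18 were above 0 in every library. A further 19 were listed at 0 in all 5 libraries, and Slc6a12, a betaine and GABA transporter, missed the filter with 2.58 FPKM in the luciferase library alone. The 19 genes at 0 included Slc6a2, Slc6a3 and Slc6a5, which encode the norepinephrine, dopamine and neuronal glycine transporters, the glutamate transporter genes Slc1a2, Slc1a6 and Slc1a7, and the light chain genes Slc7a9, Slc7a10, Slc7a12 and Slc7a13. They also included Slc6a11, Slc6a17, Slc6a18, Slc6a19, Slc36a2, Slc36a4, Slc38a11 and Slc43a1. The number of members above 0 was 28 in the untreated, 34 in the luciferase, 20 in the knockdown, 28 in the H3.3 mRNA and 29 in the H3.2 mRNA library. The knockdown library thus held the fewest, 34.5% of the members against 47.7% of all genes, while the untreated library held 48.3% of the members and 47.4% of all genes. Summed over the 58 genes, the transporters made up 0.221% of all FPKM in the untreated, 0.237% in the luciferase, 0.0829% in the knockdown, 0.146% in the H3.3 mRNA and 0.241% in the H3.2 mRNA library. The single gene Slc3a2 held 57.0%, 32.7%, 53.8%, 31.2% and 49.2% of the member sum in the same order. Without Slc3a2 the members summed to 3382, 5465, 1369, 3069 and 3017 FPKM.

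**Figure D1:**
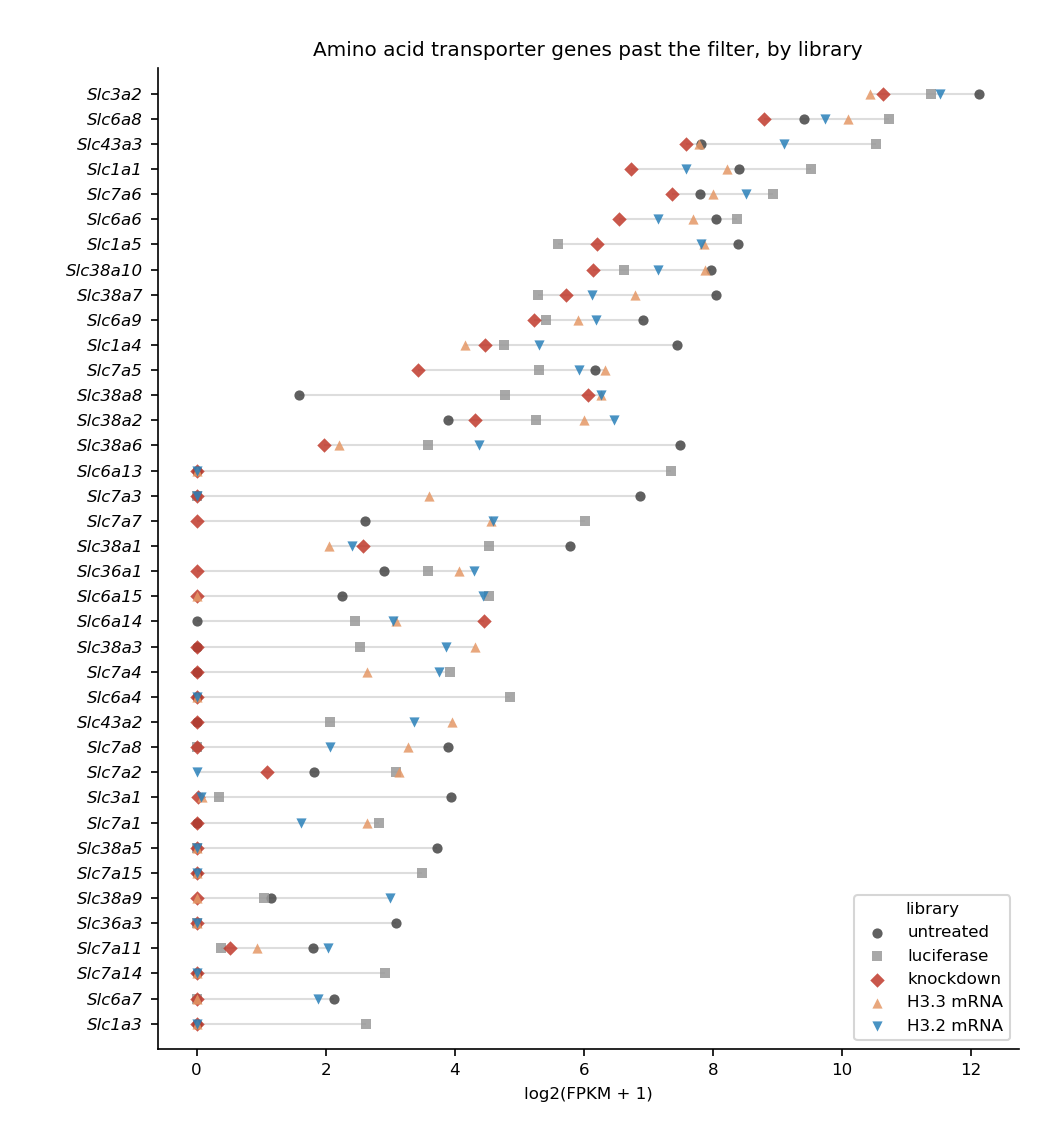
Levels of the 38 transporter genes past the filter, in order of mean level, on a log2(FPKM + 1) axis. Each point is 1 library and the grey line joins the lowest and highest library; many knockdown points lie at the left end of their line, and 18 genes were above 0 in every library.

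The knockdown library most often held the lowest value of a member. Among the 18 members above 0 in every library, the lowest value was in the knockdown for 10, in the luciferase library for 3, in the H3.3 mRNA library for 3, in the untreated library for 2 and in the H3.2 mRNA library for none. Over all genes past the filter and above 0 in every library, the luciferase library was lowest for 16.1% and the H3.3 mRNA library for 16.4%. The untreated library was lowest for 23.5% of these genes and the H3.2 mRNA library for 18.0%. The knockdown was lowest for 26.1% of them, and the 10 members amount to 55.6%. With upper-quartile scaling it was lowest for 9 of the 18 (50%, against 23.7% of all genes). With quantile normalization it was lowest for 8 (44.4%, against 23.0%). The highest value over the 38 members past the filter was in the untreated library for 14, in the luciferase library for 14, with H3.3 mRNA for 5, with H3.2 mRNA for 4 and in the knockdown for 1, which was Slc6a14. Over all genes past the filter, the untreated library was highest for 26.3%, the luciferase library for 18.2% and the knockdown for 19.0%. The H3.3 mRNA library was highest for 16.7% of them and the H3.2 mRNA library for 19.7%. Slc6a13, Slc6a4, Slc7a15, Slc7a14 and Slc1a3 passed the filter through the luciferase library alone, and Slc38a5 and Slc36a3 through the untreated one alone. Their highest library was fixed by that, so these counts describe the members and support nothing further. Upper-quartile scaling gave 12 members untreated, 14 luciferase and 1 knockdown, and quantile normalization 15, 13 and 1. In these bulk libraries, fewer cells of a type and less RNA per cell cannot be told apart.

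The heavy chain gene Slc3a2, which encodes CD98 heavy chain, was the most abundant member in every library. Its level was 4479.9 FPKM in the untreated, 2652 FPKM in the luciferase, 1596 FPKM in the knockdown, 1390.0 FPKM in the H3.3 mRNA and 2921 FPKM in the H3.2 mRNA library. It ranked between 74 and 449 among the 22026 genes. The highest and lowest libraries were 3.22-fold apart, no pair reached 4-fold, and the control values overlapped with that of the H3.2 mRNA library. With quantile normalization the H3.2 mRNA library was highest for Slc3a2, at 4411 against 4206 FPKM untreated. The knockdown was then lowest, at 1377 against 1483 FPKM with H3.3 mRNA. The other heavy chain gene, Slc3a1, whose protein pairs with Slc7a9 for cystine and cationic amino acids, stood at 14.3 FPKM in the untreated library, against 0.27 FPKM or less in the other 4. Its exons overlap those of Prepl on the opposite strand in GENCODE M21, so its low values are uncertain, and its partner gene Slc7a9 was listed at 0.

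The light chain genes were far below the heavy chain gene Slc3a2 in every library. Slc7a6, whose protein exchanges cationic for neutral amino acids, was the leading light chain, at 222 FPKM in the untreated, 489 FPKM in the luciferase, 164 FPKM in the knockdown, 255 FPKM in the H3.3 mRNA and 364 FPKM in the H3.2 mRNA library. Its highest and lowest libraries were 2.97-fold apart. It made up 69.5% to 94.1% of the summed light chain level, the highest share being in the knockdown. Slc7a5, the large neutral amino acid transporter that imports leucine, stood at 70.9 FPKM in the untreated, 38.7 FPKM in the luciferase, 9.79 FPKM in the knockdown, 79.8 FPKM in the H3.3 mRNA and 60.1 FPKM in the H3.2 mRNA library. Slc7a5 was lowest in the knockdown, at 13.8% of the untreated level, and the H3.3 mRNA and H3.2 mRNA libraries were 8.15-fold and 6.14-fold above it. Against the luciferase library the knockdown difference of Slc7a5 did not reach 4-fold.

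Slc7a7 stood at 5.13 FPKM in the untreated library, 63.5 FPKM in the luciferase library, a listed 0 in the knockdown, and 22.6 and 23.2 FPKM with H3.3 mRNA and H3.2 mRNA. Its exons overlap those of Oxa1l on the opposite strand. Slc7a8, a further neutral amino acid light chain, stood at 13.9 FPKM in the untreated, 8.72 FPKM in the H3.3 mRNA and 3.17 FPKM in the H3.2 mRNA library and was listed at 0 in the other 2. Slc7a15 was above 0 in the luciferase library alone, at 10.2 FPKM. Slc7a11 was low throughout, at 2.49, 0.30, 0.43, 0.91 and 3.12 FPKM in the untreated, luciferase, knockdown, H3.3 mRNA and H3.2 mRNA libraries, and no pair of libraries was called 4-fold apart in the comparisons made. Of the 2 genes with the response element core, Slc7a7 therefore varied from a listed 0 to 63.5 FPKM and Slc7a11 stayed at 3.12 FPKM or less.

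The balance of heavy to light chain mRNA differed between the libraries. The light chains summed to 315 FPKM in the untreated, 601 FPKM in the luciferase, 175 FPKM in the knockdown, 368 FPKM in the H3.3 mRNA and 453 FPKM in the H3.2 mRNA library. Slc3a2 exceeded that sum 14.2-fold in the untreated, 9.14-fold in the knockdown, 6.45-fold in the H3.2 mRNA, 4.41-fold in the luciferase and 3.78-fold in the H3.3 mRNA library. The ratio is taken within a library, so 1 scaling factor for a library leaves it as it is. Quantile normalization, which alters values by rank, gave 14.8 in the untreated, 8.76 in the H3.2 mRNA, 7.32 in the knockdown, 4.07 in the luciferase and 3.87 in the H3.3 mRNA library, with values listed at 0 kept at 0, and so turned the order of the knockdown and H3.2 mRNA libraries. The controls lay at 14.2 and 4.41, and the 3 libraries with the knockdown lay partly between and partly below them, so the treatments did not separate on this measure. The transcripts differ in length, at 2813 bases for Slc3a2 and 3750 bases for Slc7a6. Differences between libraries moved with length, and the part of length in this ratio was not tested.

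**Figure D2:**
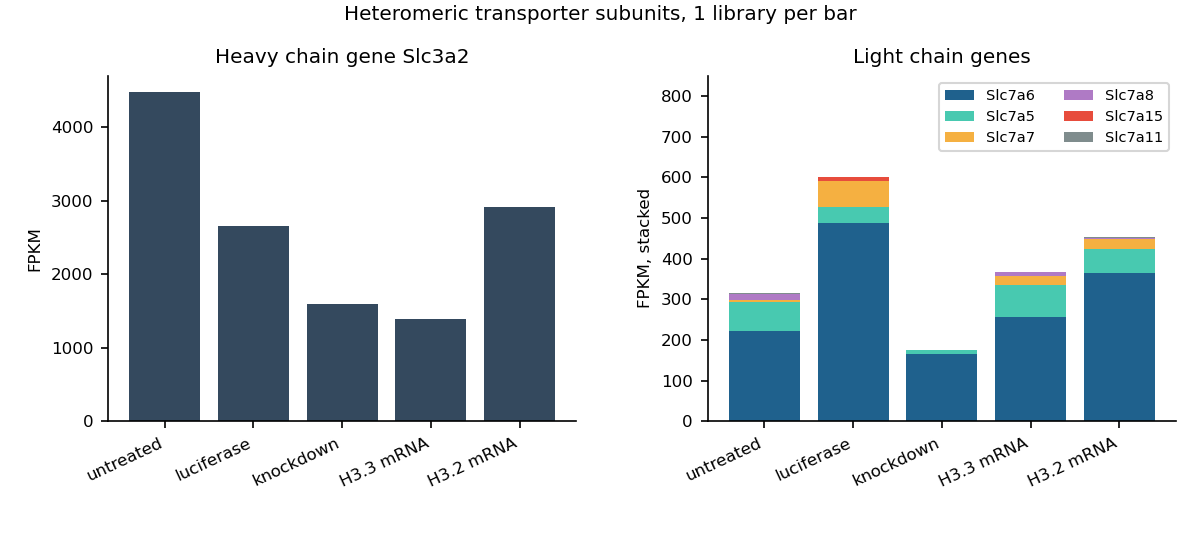
Levels in FPKM of the heavy chain gene Slc3a2 (left) and of the light chain genes above 0, stacked (right), 1 library per bar. The light chain sum was lowest in the knockdown at 175 FPKM and highest in the luciferase library at 601 FPKM, and Slc7a6 made up most of it in each library.

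The cationic amino acid transporter genes, which import arginine and lysine outside the heteromeric system, were low in most libraries. Slc7a3 stood at 115 FPKM in the untreated library, 11.2 FPKM in the H3.3 mRNA library, and was listed at 0 in the other 3. Slc7a1 was listed at 0 in the untreated and knockdown libraries and stood at 6.1, 5.22 and 2.07 FPKM in the luciferase, H3.3 mRNA and H3.2 mRNA libraries. Slc7a2 lay between a listed 0 with H3.2 mRNA and 7.76 FPKM with H3.3 mRNA. The related genes Slc7a4 and Slc7a14 reached 14.2 and 6.53 FPKM in the luciferase library, and Slc7a14 was listed at 0 elsewhere. The 5 genes summed to 118 FPKM in the untreated, 34.4 FPKM in the luciferase, 1.12 FPKM in the knockdown, 29.4 FPKM in the H3.3 mRNA and 14.6 FPKM in the H3.2 mRNA library. The knockdown sum was the lowest and came from Slc7a2 alone.

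The Slc1 family held 4 genes past the filter. Slc1a1, a sodium-coupled glutamate, aspartate and cysteine transporter, stood at 339 FPKM in the untreated library, at 733 FPKM in the luciferase library, and at 105, 298 and 192 FPKM in the knockdown, H3.3 mRNA and H3.2 mRNA libraries. Both controls lay above all 3 libraries with the knockdown, though the H3.3 mRNA value was close to the untreated one. With upper-quartile scaling the untreated value of Slc1a1 was 279 FPKM against 313 FPKM with H3.3 mRNA, and with quantile normalization 284 against 315 FPKM, so that order ended under both. Slc1a5, an exchanger that carries glutamine, stood at 335 FPKM in the untreated, 47.3 FPKM in the luciferase, 72.6 FPKM in the knockdown, 231 FPKM in the H3.3 mRNA and 225 FPKM in the H3.2 mRNA library. The luciferase control was the lowest of the 5, so the controls of Slc1a5 enclosed the other libraries. Slc1a4, an alanine, serine and cysteine transporter, stood at 174 FPKM in the untreated library, against between 16.9 and 38.7 FPKM in the other 4. Slc1a3, a glial-type glutamate transporter, was above 0 in the luciferase library alone, at 5.15 FPKM.

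Among the Slc6 genes, those for osmolytes and creatine were the abundant ones. Slc6a8, the creatine transporter, stood at 681 FPKM in the untreated, 1702 FPKM in the luciferase, 440.3 FPKM in the knockdown, 1095 FPKM in the H3.3 mRNA and 857 FPKM in the H3.2 mRNA library, and no compared pair reached 4-fold. Slc6a6, the transporter of taurine and beta-alanine, measured 265 FPKM untreated, 332 FPKM with luciferase, and 92.2, 205 and 141 FPKM in the knockdown, H3.3 mRNA and H3.2 mRNA libraries. Both controls of Slc6a6 lay above the other 3, an order that held with upper-quartile scaling and quantile normalization, while no compared pair reached 4-fold. With upper-quartile scaling the gap was small, 218 FPKM in the untreated against 215 FPKM in the H3.3 mRNA library. Slc6a9, the glycine transporter, stood at 120.0 FPKM in the untreated, 41.9 FPKM in the luciferase, 36.4 FPKM in the knockdown, 59.3 FPKM in the H3.3 mRNA and 71.7 FPKM in the H3.2 mRNA library. The luciferase and knockdown values of Slc6a9 were close, and its exons overlap those of B4galt2 and Ccdc24 on the opposite strand.

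The rarer Slc6 genes differed in which libraries listed them above 0. Slc6a13, a GABA transporter, was above 0 in the luciferase library alone, at 162 FPKM, and so was Slc6a4, the serotonin transporter, at 28.1 FPKM. Slc6a15, a neutral amino acid transporter, stood at 3.77, 22.0 and 20.6 FPKM in the untreated, luciferase and H3.2 mRNA libraries and was listed at 0 in the knockdown and H3.3 mRNA libraries. Slc6a7, a proline transporter, reached 3.38 FPKM at most. Slc6a14, a carrier of neutral and cationic amino acids, went the other way. It was listed at 0 in the untreated library and stood at 4.47 FPKM in the luciferase, 21.0 FPKM in the knockdown, 7.5 FPKM in the H3.3 mRNA and 7.24 FPKM in the H3.2 mRNA library, so both controls lay below the other 3.

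The Slc38 genes, sodium-coupled transporters of glutamine and other neutral amino acids, differed in which library was high. Slc38a10 stood at 250.1 FPKM in the untreated, 97.6 FPKM in the luciferase, 69.3 FPKM in the knockdown, 234 FPKM in the H3.3 mRNA and 141 FPKM in the H3.2 mRNA library. Slc38a7, a lysosomal glutamine transporter, stood at 263 FPKM in the untreated library, against 38.03, 52.0, 110.0 and 68.8 FPKM in the luciferase, knockdown, H3.3 mRNA and H3.2 mRNA libraries. Slc38a6 stood at 179 FPKM in the untreated library, against 11.0, 2.94, 3.61 and 19.8 FPKM in the same order. The untreated library was thus the high one for Slc38a7 and Slc38a6 and, by a small margin, for Slc38a10. The order of Slc38a10 turned with upper-quartile scaling, at 206 FPKM untreated against 246 FPKM with H3.3 mRNA, and with quantile normalization, at 208 against 249 FPKM. For Slc38a6 the knockdown lay 60.9-fold below the untreated library as deposited and 26.7-fold below it with quantile normalization, a fold that rests on a low knockdown value.

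Slc38a1 and Slc38a2 both encode system A carriers of glutamine and alanine, and their levels differed. Slc38a1 measured 53.9 FPKM untreated, 22.0 FPKM with luciferase, and 4.94, 3.16 and 4.30 FPKM in the knockdown, H3.3 mRNA and H3.2 mRNA libraries. Both controls of Slc38a1 lay above the other 3 with a gap of more than the spread among those 3, as deposited and with either rescaling. Slc38a2 measured 13.9 FPKM untreated, 37.4 FPKM with luciferase, 18.8 FPKM in the knockdown, 63.4 FPKM with H3.3 mRNA and 87.6 FPKM with H3.2 mRNA. The H3.3 mRNA and H3.2 mRNA libraries were the high ones for Slc38a2, and the knockdown lay between the controls.

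Slc38a8 had the opposite order to Slc38a1. It measured 1.99 FPKM untreated, 26.4 FPKM with luciferase, and 65.6, 76.0 and 75.6 FPKM in the knockdown, H3.3 mRNA and H3.2 mRNA libraries, which were close to each other. Slc38a3, a glutamine carrier of system N, was listed at 0 in the untreated and knockdown libraries and stood at 4.76, 19.0 and 13.5 FPKM in the luciferase, H3.3 mRNA and H3.2 mRNA libraries. Slc38a5, of the same system, was above 0 in the untreated library alone, at 12.3 FPKM. Slc38a9, a lysosomal protein through which arginine is sensed by mTORC1, reached 6.94 FPKM with H3.2 mRNA, measured 1.23 FPKM untreated, 1.06 FPKM with luciferase, and a listed 0 in the knockdown and H3.3 mRNA libraries.

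Of the Slc43 genes, Slc43a3, whose protein carries purine bases, had the highest mean level after Slc3a2 and Slc6a8. It stood at 225 FPKM in the untreated, 1469.8 FPKM in the luciferase, 191 FPKM in the knockdown, 219.9 FPKM in the H3.3 mRNA and 548 FPKM in the H3.2 mRNA library. Both SCNT-labelled libraries were high for Slc43a3 and the 3 NT-labelled ones lay close together, so that its 7.70-fold gap between the luciferase and knockdown libraries came with a difference in that label. Within the NT-labelled libraries the knockdown stood at 84.9% of the untreated level. Slc43a2, a leucine and methionine carrier, was listed at 0 in the untreated and knockdown libraries and stood at 3.18, 14.5 and 9.38 FPKM in the luciferase, H3.3 mRNA and H3.2 mRNA libraries. Of the proton-coupled Slc36 genes, the lysosomal carrier gene Slc36a1 measured 6.52 and 10.9 FPKM in the controls, was listed at 0 in the knockdown, and stood at 15.8 and 18.7 FPKM with H3.3 mRNA and H3.2 mRNA. Slc36a3 was above 0 in the untreated library alone, at 7.47 FPKM.

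**Figure D3:**
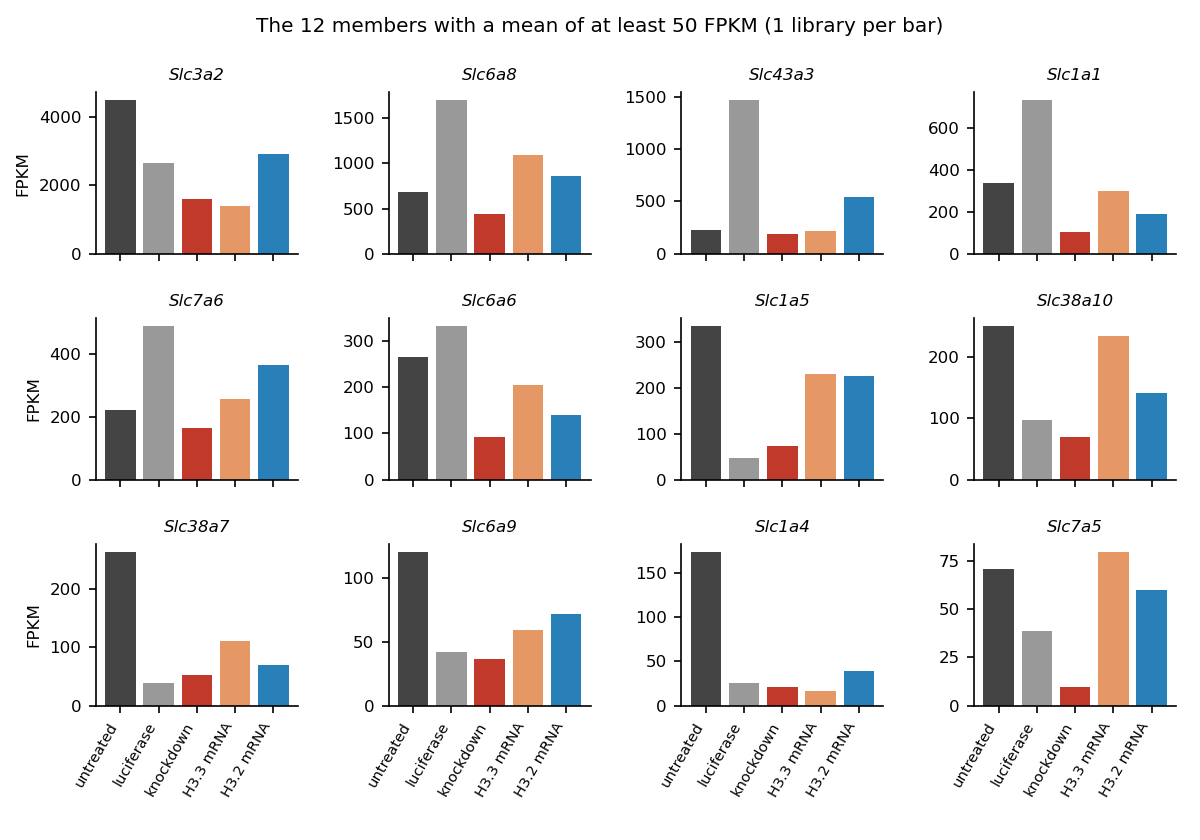
Levels in FPKM of the 12 transporter genes whose mean is 50 FPKM or more, 1 library per bar, each panel with its own axis from 0. The knockdown bar lies below the untreated bar in all 12 panels and below the luciferase bar in 10, the exceptions being Slc1a5 and Slc38a7; with either rescaling Slc43a3 no longer lay below its untreated level.

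The knockdown was then set against each control over all genes. Each contrast also takes in what sets that control apart from the other control. Against the untreated library, 15 of the 38 members past the filter were at least 4-fold lower (39.5%), against 15.6% of all 13144 genes past it. Only Slc38a8 and Slc6a14 were at least 4-fold higher (5.26%, against 16.8% of all genes). Listed by size of the difference, the members lower were Slc7a3, Slc38a6, Slc3a1, Slc7a8, Slc38a5, Slc38a1, Slc36a3, Slc1a4, Slc36a1, Slc7a5, Slc7a7, Slc38a7, Slc6a15, Slc1a5 and Slc6a7, with 8 of the 15 listed at 0 in the knockdown. All 10 members at least 4-fold lower in the luciferase than in the untreated library, a pair without the knockdown, were among these 15. The median difference of the members was -1.50, and that of all genes was 0.00. With upper-quartile scaling these were -1.15 and 0.00, and with quantile normalization -1.27 and -0.02. The differences of Slc1a5 and Slc38a7 were -2.19 and -2.32 as deposited, -1.84 and -1.97 with upper-quartile scaling, and -1.78 and -1.88 with quantile normalization, so these calls ended with either rescaling, as did that of Slc6a7 with the former (-1.92). Members that pass the filter through 1 high library must differ somewhere, so these shares describe the members and support nothing further.

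Against the luciferase library, 15 of 38 members were at least 4-fold lower (39.5%), against 18.9% of all genes, and Slc6a14 was higher (2.63%, against 9.74% of all genes). The median difference was -1.72 over the members and -0.12 over all genes, and with quantile normalization -0.96 and 0.03. The members lower were Slc6a13, Slc7a7, Slc6a4, Slc6a15, Slc7a4, Slc36a1, Slc7a15, Slc43a3, Slc7a14, Slc7a1, Slc1a1, Slc1a3, Slc38a3, Slc43a2 and Slc7a2, with 12 of the 15 listed at 0 in the knockdown. Of these, Slc6a13, Slc6a4, Slc7a15, Slc7a14 and Slc1a3 were above 0 in the luciferase library alone. They passed the filter only through it and had to be called lower, so the share describes the members and supports nothing further. The calls of Slc38a3, Slc43a2 and Slc7a2 ended with quantile normalization, at -1.61, -1.06 and -0.39. Slc43a3 and Slc1a1 were the abundant ones, with differences of -2.94 and -2.79. All of the 15 but Slc36a1, Slc1a1 and Slc7a2 were also called higher in the luciferase than in the untreated library. Only Slc36a1, Slc7a7 and Slc6a15 were called lower against both controls. Both comparisons share the knockdown library, so a low value there enters each, and this one also crosses the NT and SCNT labels whereas that with the untreated library does not.

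The same comparisons were made over the 12 members at or above a mean of 50 FPKM, a limit chosen after the values were seen. In the knockdown all 12 lay below their untreated level, with a median difference of -1.69, where all 6532 genes at this level had a median of -0.18 and 55.3% were lower. Against the luciferase library 10 of 12 were lower, with a median of -1.15, where all genes at this level had a median of 0.00 and 50% were lower. With upper-quartile scaling and with quantile normalization Slc43a3 lay above its untreated level, which left 11 of 12 below it, with medians of -1.34 and -1.35; the 10 against the luciferase library were unchanged in number. Of the 12, Slc1a4, Slc7a5, Slc38a7 and Slc1a5 were at least 4-fold below the untreated library (33.3%, against 11% of genes at this level), and Slc43a3 and Slc1a1 below the luciferase library (16.7%, against 8.44%). Slc1a4 passed the limit of 50 FPKM through its untreated value alone, its other values being 38.7 FPKM or less. The untreated value of Slc7a5 also helped it past the limit, so the 33.3% describes these members and supports nothing further. Transcript length moved with these differences. Over 5894 genes at this level with a known length, Spearman's rho across genes, which are not independent replicates, of length with the difference was -0.21 for the untreated comparison and -0.39 for the luciferase one. The 12 members had a median transcript length of 3634 bases, and all genes at this level one of 2905 bases. Over the 2931 genes whose length lay in the members' range of 2621 to 6186 bases, the median difference from the untreated library was -0.50 and that from the luciferase library -0.38, and 63.9% and 62.0% of them were lower. Genes of that length were therefore lower too, by less than the 12 members.

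**Figure D4:**
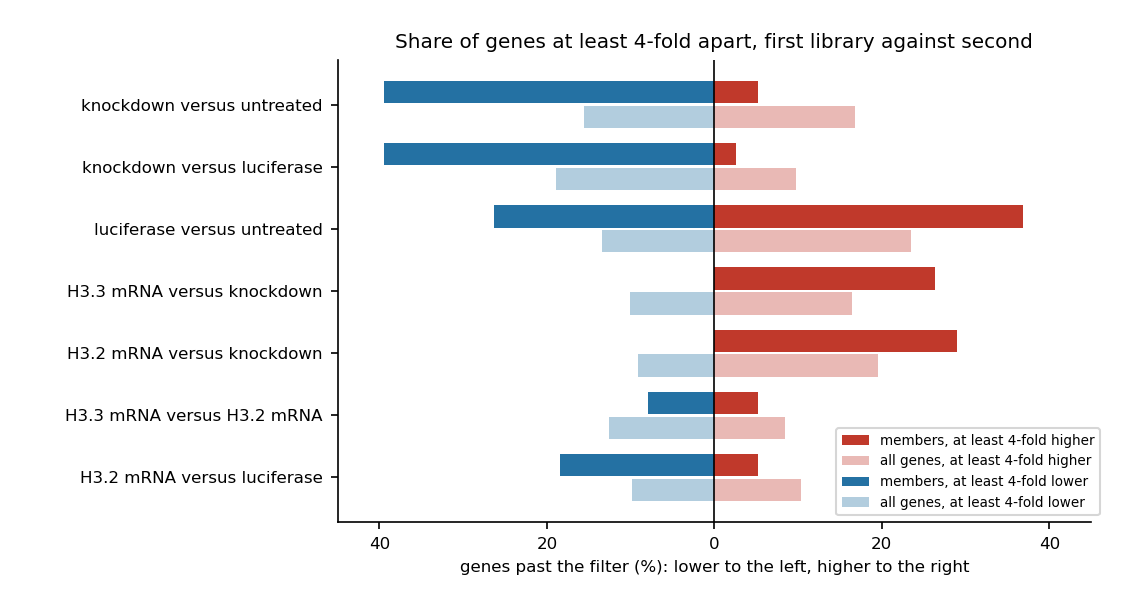
Share of genes at least 4-fold higher (right) or lower (left) in the first library named than in the second, for the 38 transporter genes past the filter (full colour) and for all 13144 genes past it (pale). The share of members lower in the knockdown was 39.5% against either control, with only Slc36a1, Slc7a7 and Slc6a15 called against both. No member was 4-fold lower with H3.3 mRNA or H3.2 mRNA than in the knockdown as deposited, against 2 for H3.2 mRNA with quantile normalization.

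The controls were compared with each other, since their distance shows how far libraries without the knockdown lie apart. In the luciferase library 14 of 38 members were at least 4-fold higher than in the untreated one (36.8%, against 23.5% of all genes), and 10 were lower (26.3%, against 13.4%). With quantile normalization 7 were higher and 12 lower, and with upper-quartile scaling 14 and 9. The median difference was 0.89 over the members and 0.02 over all genes, and with upper-quartile scaling these became 1.23 and 0.37. With quantile normalization they became 0.13 and 0.01, so the higher median of the members was largely lost. The members higher included Slc6a13, Slc43a3, Slc7a7 and Slc38a8, and 10 of the 14 were listed at 0 in the untreated library. Those lower included Slc7a3, Slc38a6, Slc1a5, Slc38a7 and Slc1a4. Members above 0 in the luciferase library alone (Slc6a13, Slc6a4, Slc7a15, Slc7a14, Slc1a3) or the untreated library alone (Slc38a5, Slc36a3) passed the filter only through it. Their calls here were fixed by that. The difference of Slc38a8 was 3.2 as deposited and 1.92 with quantile normalization, under which Slc38a3, Slc43a2, Slc6a14 and Slc6a15 also fell short of 4-fold. The controls thus differed from each other at more members, 24 of 38, than the knockdown did from either. The same ranking held over all genes, so it is not particular to the members. There, 23.5% were higher and 13.4% lower between the controls. For the knockdown these were 16.8% and 15.6% against the untreated library, and 9.74% and 18.9% against the luciferase library. The oocyte markers, the cumulus and granulosa markers and the blood cell markers given at the start were also highest in sum in the untreated library. Their part in the members highest there was not tested.

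Each mRNA library was set against the knockdown. With H3.3 mRNA 10 of 38 members were at least 4-fold higher (26.3%, against 16.4% of all genes) and none was lower (against 10.1% of all genes). The members higher were Slc7a7, Slc38a3, Slc36a1, Slc43a2, Slc7a3, Slc7a8, Slc7a5, Slc7a4, Slc7a1 and Slc7a2, of which 8 were listed at 0 in the knockdown. With quantile normalization the call of Slc7a2 ended, its difference going from 2.05 to 0.62. With H3.2 mRNA 11 members were higher (28.9%, against 19.5% of all genes) and none was lower (against 9.11%), and with quantile normalization 8 were higher and 2 lower. The members higher were Slc7a7, Slc6a15, Slc36a1, Slc38a3, Slc7a4, Slc43a2, Slc38a9, Slc7a5, Slc38a6, Slc38a2 and Slc7a8. With quantile normalization the calls of Slc38a2, Slc38a6 and Slc7a8 ended, at differences of 1.94, 1.35 and 0.97. Among the 12 abundant members, 10 exceeded their knockdown level with H3.3 mRNA (median 1.11), Slc3a2 and Slc1a4 being the exceptions, and all 12 were higher with H3.2 mRNA (median 0.96). Quantile normalization placed Slc3a2 higher with H3.3 mRNA as well, which made 11. Of all genes at this level, 49.8% exceeded the knockdown in the H3.3 mRNA library and 48.2% in the H3.2 mRNA library. The 2931 genes of the same level and length range had medians of 0.42 and 0.42, with 63.9% and 63.8% of them higher. These comparisons share the knockdown library with those above, so a low knockdown value alone would place a gene higher in each. The H3.2 mRNA library also carries the other source label.

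The H3.3 mRNA and H3.2 mRNA libraries differed from each other at few members. Only Slc7a3 and Slc7a2 were at least 4-fold higher with H3.3 mRNA (5.26%, against 8.38% of all genes), and Slc6a15, Slc38a9 and Slc38a6 were lower (7.89%, against 12.6%). None of the 12 abundant members was among them, and the median difference was 0.00 over both the members and all genes. The pair within the SCNT label, H3.2 mRNA against luciferase, had 2 members higher, Slc1a5 and Slc7a8 (5.26%, against 10.4% of all genes), and 7 lower (18.4%, against 9.84%). Those lower were Slc6a13, Slc6a4, Slc7a15, Slc7a2, Slc7a14, Slc1a3 and Slc38a1, and 6 of the 7 were listed at 0 with H3.2 mRNA. All of these but Slc7a2 and Slc38a1 passed the filter through the luciferase library alone and had to be called.

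The order of the libraries gave a further count. Both controls lay above all 3 libraries with the knockdown for 4 of 38 members (10.5%, against 8.83% of all genes), which were Slc1a1, Slc6a6, Slc38a1 and Slc3a1. Slc1a1 lost this order with either rescaling and Slc3a1 with quantile normalization. Both controls lay below the 3 for Slc38a8 and Slc6a14 (5.26%, against 7.14% of all genes). These shares were near those of all genes. By the source label, a split examined after the values were seen, both SCNT-labelled libraries lay above all 3 NT-labelled ones for Slc43a3, Slc7a6, Slc7a7, Slc6a15 and Slc7a4 (13.2%, against 11.9% of all genes), and below them for no member (against 8.48%). Slc7a7 lost its order with quantile normalization.

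Genes that act with the transporters were read from 3 lists. Of 36 genes of mTORC1 and amino acid sensing past the filter, the knockdown had 5 at least 4-fold higher and 3 lower than the untreated library, and 0 higher and 6 lower than the luciferase library. These are 13.9% and 8.33% for the untreated comparison, against 16.8% and 15.6% of all genes, and 0% and 16.7% for the luciferase one, against 9.74% and 18.9%. Tbc1d7, a subunit of the TSC complex that restrains mTORC1, had control values of 6.54 and 72.7 FPKM against a listed 0 in the knockdown. Mios, a subunit of the complex that relays amino acid supply to mTORC1, went the other way, with control values of 2.72 and 34.3 FPKM against 62.1 FPKM in the knockdown. Sesn3, a sestrin, stood at 0 and 27.9 against 22.6 FPKM, and Fnip2 at 2.43 and 3.16 FPKM against a listed 0. The median difference of this list was 0.00 for the untreated comparison and -0.11 for the luciferase one, close to the 0.00 and -0.12 of all genes.

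Of 33 genes of amino acid and glutathione synthesis, 4 were higher and 3 lower than in the untreated library, and 3 higher and 5 lower than in the luciferase library, with medians of 0.00 and 0.13. These are 12.1% and 9.09% for the untreated comparison and 9.09% and 15.2% for the luciferase one, all below the shares of all genes. Cbs, which makes cystathionine, had control values of 2.42 and 31.7 FPKM against 125 FPKM in the knockdown. The liver-type glutaminase gene Gls2 had 9.29 and 235 against 367 FPKM. Ado, a thiol dioxygenase gene, stood at 0 and 15.4 against 36.7 FPKM, and the glycine-cleaving enzyme gene Gldc at 812 and 1851 against 226 FPKM. Of 15 other amino acid and peptide carriers past the filter, 3 were higher and 1 lower than in the untreated library, and 2 higher and 1 lower than in the luciferase library, with medians of 0.00 and -0.06. These are 20% and 6.67% for the untreated comparison, against 16.8% and 15.6% of all genes. For the luciferase one they are 13.3% and 6.67%, against 9.74% and 18.9%, and each gene weighs heavily in so short a list. Among them Slc12a8 stood at 8.85 FPKM in the knockdown against a listed 0 in both controls, Slc16a10, an aromatic amino acid carrier, stood at 119.9 and 19.4 against 13.5 FPKM, Slc25a18, a mitochondrial glutamate carrier, at 0 and 9.86 against 9.54 FPKM, and Slc66a1, a lysosomal cationic amino acid exporter, at 117 and 34.3 against 138 FPKM. The transporter genes past the filter had medians of -1.50 and -1.72 in the same comparisons. These were -1.15 and -1.73 with upper-quartile scaling and -1.27 and -0.96 with quantile normalization.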

How the data were processed

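Total RNA of 5 libraries was sequenced as single reads of 51 bases from Illumina TruSeq libraries, per the labels' protocols. Per the submitters' processing notes, the authors used TopHat and Cufflinks with the mm9 build; no version is named. The deposited FPKM values are the unit of all results. FPKM is relative to transcript length and to all mapped fragments, so abundant transcripts lower the share of the rest. Depth is unknown: among 333 genes above 0 and under 20 FPKM in each library, the fullest bin of 0.1 log2 units between a pair of libraries held 4.80%, and no step worth 1 read was found. No interval or detection limit is therefore given, and a value of exactly 0 is called listed at 0, with no fold against it.

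Differences of log2(FPKM + 1) were computed with Python 3.11.15, numpy 2.4.6 and pandas 2.3.3 over 13144 genes (mean of 1 FPKM or more), in 7 comparisons, with calls at 4-fold. The calculation was tested on simulated data. The members and lists were chosen with earlier results of these data known. Members named are the 15 of highest mean, those called in 2 or more comparisons, the 4 with the largest difference in each, all heavy and light chains, and those whose controls did not overlap the other libraries; others were named after their values were seen. One member is not reported here by name. From each list, the 4 genes with the largest difference of the knockdown from the mean of the controls are named. Symbols were matched to RefSeq (GRCm38.p6) and transcript lengths and exon overlaps to GENCODE M21, and the counting is not stated to use strand. Besides Slc3a1, Slc7a7 and Slc6a9, exons overlap an opposite-strand gene for Slc1a1 (4430402I18Rik), Slc6a6 (Gm44981), Slc38a10 (Gm11769) and Slc7a4 (P2rx6). The same holds for Slc7a2 (Gm26584), Slc38a9 (Gm47827) and Slc43a2 (Gm45606), so the values of all these genes carry that limit. Alternatives were 2 other pseudocounts and 2 other filters, upper-quartile scaling and quantile normalization.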

Additional observations from a re-analysis of the deposited data

How the results depend on the processing

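No paired analysis was possible because each treatment has 1 library, and for the same reason no library could be left out. Called differences of single members numbered 92. All 92 could be recomputed under 4 of the 6 alternatives, 66 with the filter at a mean of 5 FPKM and 86 with quantile normalization, since the other genes no longer passed the filter. None changed sign with upper-quartile scaling or quantile normalization. A pseudocount or a filter cannot change a sign, so the other alternatives did not test this. With no filter and with upper-quartile scaling, all 18 counts stayed within 1.5 times the reported value, although single calls changed: 4 of the 92 fell under 4-fold with upper-quartile scaling and 15 of the 86 with quantile normalization. A pseudocount of 5 FPKM, which shrinks differences of low genes by construction, took 55 of the 92 under 4-fold. With it, the members lower in the knockdown numbered 7 for the untreated comparison and 6 for the luciferase one, and 0 were higher than in the latter. The luciferase library had 5 members higher and 5 lower than the untreated one. Either mRNA library had 4 members higher than the knockdown. H3.3 mRNA against H3.2 mRNA gave 0 higher and 1 lower, and H3.2 mRNA against luciferase 1 higher and 2 lower. A pseudocount of 0.1 FPKM gave 5 members higher with H3.2 mRNA than in the luciferase library and 1 lower than in the knockdown. A filter at a mean of 5 FPKM, which removes low genes, gave 6 members lower in the luciferase than in the untreated library, 3 lower with H3.2 mRNA than in the luciferase library, and 1 higher with H3.3 mRNA than with H3.2 mRNA. Quantile normalization gave 7 members higher in the luciferase than in the untreated library, 1 higher with H3.2 mRNA than in the luciferase library, 2 lower with H3.2 mRNA than in the knockdown, and 5 with both SCNT-labelled libraries below the NT-labelled ones. It gives values tied at 0 a different level in each library by construction, and whether that is the cause was not tested. Depth being unknown, a listed 0 cannot be told from a low level.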
